A study of Mus musculus with 8 samples.

Results

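Genes of the integrated stress response and of amino acid supply were followed in 4 mouse pro-B cell lines. The set holds 36 genes of 23929 gene symbols, chosen by name as targets or partners of the stress factor ATF4. No measured value enters the rule, but the list was drawn up with earlier results of these data known. It has 7 stress transcription factors, 9 feedback regulators and stress effectors, 12 enzymes of amino acid and one-carbon metabolism, and 8 amino acid transporters. Expression was read as FPKM (fragments scaled by transcript length and mapped reads), and 34 of the 36 reached an FPKM of 1 in at least 2 of the 8 libraries and were tested. Cebpb and Gdf15 did not.

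The lines are of 129SV strain, are labelled bone marrow pro-B cells, and were grown without treatment in medium with fetal bovine serum and 2-mercaptoethanol. CBE line 1 and CBE line 2 are both titled CBE-/- and carry the genotype label IGCR1-/-, for the intergenic control region of the immunoglobulin heavy chain (IgH) locus with its CTCF-binding elements. The Eµ-deleted line is labelled Eµ-/-, for the intronic enhancer of the same locus, and the WT line is labelled wild type. Both deletions take away non-coding elements of that locus, so no level of a member checks these labels. Each line gave a replicate 2 and a replicate 1 library of single 75 bp reads. Eµ deletion and wild type are each represented by 1 line, so genotype and line cannot be told apart. Nothing in the labels gives the libraries of a line separate cultures, and the spread behind each p-value may thus be technical.

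In the integrated stress response, a lack of amino acids, unfolded protein in the endoplasmic reticulum or other stress leads to phosphorylation of the initiation factor eIF2. Most translation then slows, while the mRNA of ATF4 is translated more, and ATF4 with C/EBP family partners switches on genes for amino acid synthesis and uptake and for feedback on the response itself. In the B lineage the pathway is best known from acute lymphoblastic leukaemia, where low asparagine synthetase leaves many lymphoblasts open to treatment with asparaginase.

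ATF4 and a C/EBP partner bind a composite DNA element of the form TGATGNAA, so the promoters of the members were searched for these letters on both strands. RefSeq windows of 300 bases (GRCm38.p6, 250 bases before and 50 after the transcript start) were found for 32 of the 36 members, and 11 of the 32 held the element (34.4%), beside 4.51% of 27025 genes with a window. The 11 were Atf3, Nupr1, Trib3, Chac1, Herpud1, Vldlr, Asns, Pycr1, Got1, Slc7a11 and Slc1a4. The endoplasmic reticulum stress element, searched on both strands as CCAAT and CCACG with 9 bases between them, was in 0 of the 32 members and in 0.137% of all genes. Eif4ebp1, Cth, Slc7a5 and Slc1a5 had no window. The stretches printed come from the promoters of 5 members that stood higher in replicate 2 of every line (Nupr1, Chac1, Atf3, Pycr1 and Asns), of the 1 member that stood lower there (Slc7a11), and of 2 members called between lines (Got1 and Vldlr). They run 5′ to 3′ along the gene's own strand, with the matched letters, or their reverse complement, in capitals.
Nupr1 (chr7:126625543-126625610, minus strand): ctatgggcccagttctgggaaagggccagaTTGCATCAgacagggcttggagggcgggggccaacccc
Chac1 (chr2:119351019-119351086, plus strand): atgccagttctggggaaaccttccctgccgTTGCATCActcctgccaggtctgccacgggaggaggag
Atf3 (chr1:191183406-191183473, minus strand): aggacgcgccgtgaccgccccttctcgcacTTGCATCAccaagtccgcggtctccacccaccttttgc
Pycr1 (chr11:120643814-120643881, minus strand): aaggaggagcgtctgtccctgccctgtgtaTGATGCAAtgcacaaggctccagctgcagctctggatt
Asns (chr6:7693210-7693262, minus strand): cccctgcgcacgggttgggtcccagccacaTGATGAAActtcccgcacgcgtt
Slc7a11 (chr3:50443623-50443709, minus strand): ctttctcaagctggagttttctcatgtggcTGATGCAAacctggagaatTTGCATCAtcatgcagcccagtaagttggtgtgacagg
Got1 (chr19:43524670-43524737, minus strand): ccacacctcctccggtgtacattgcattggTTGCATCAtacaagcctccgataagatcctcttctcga
Vldlr (chr19:27216790-27216857, plus strand): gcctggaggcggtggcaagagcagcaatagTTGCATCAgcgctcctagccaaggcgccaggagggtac

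The first matched base lay 110 bases before the start in Nupr1 and in Atf3, 193 in Chac1, 103 in Pycr1, 23 in Asns, 102 in Got1 and 200 in Vldlr. Slc7a11 was the member with a pair of matches, at 66 and 47 bases before its start, on opposite strands. A match describes the letters only, and the windows are of another build than the expression values, which the submitters' processing notes place on mm9.

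Depth was taken from the intervals the authors deposited with each value. If these hold counting error alone, they imply 31.3 to 49.5 M reads per library. For some abundant members this did not hold. Atf4 gave 2179 to 2303 implied reads in every library at 302 to 548 FPKM, whereas Asns gave 27464 at 304 FPKM in CBE line 1 replicate 2. The sums, and the comparison of replicates that follows, are therefore rough and are not exact depths. Replicate 1 had more implied reads than replicate 2 in 3 lines, the exception being CBE line 2 (35.5 M in replicate 2, against 33.0 M in replicate 1). Of 16 pro-B markers 15 passed the filter, with summed levels of 5722 to 7772 FPKM, and Kit was listed at 0 in all 8 libraries. These sums came mostly from Vpreb1, Vpreb2, Vpreb3, Igll1 and Cd79a. Rag1 and Rag2 passed only through the lines other than WT. In replicates 2 and 1 of WT, Rag1 was at 0.0295 and 0.0427 FPKM and Rag2 at 0.00543 and 0.0207 FPKM. In the other lines Rag1 was at 3.77 to 13.8 FPKM and Rag2 at 1.93 to 5.38 FPKM. Erythroid and stromal marker sums were under 1 FPKM, myeloid sums were 3.05 to 12.3 FPKM, and T lineage sums of 148 to 360 FPKM came mostly from Lat, with Cd3e, Cd4 and Cd8a listed at 0. Plasma cell marker sums were 55.9 to 138 FPKM, highest in WT, and came mostly from Xbp1 and Irf4. Sdc1, of the same list, was lowest in WT, at 0.0789 and 0.151 FPKM in replicates 2 and 1, against 2.17 to 4.54 FPKM elsewhere. In bulk RNA fewer cells with a transcript and less of it per cell cannot be told apart.

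One library stood apart for these genes. CBE line 1 replicate 1 was the lowest of the 8 libraries for 26 of the 34 tested members, beside 16.8% of the 10479 genes tested, and medians, means and counts that moved by over 1.5 times or changed direction without it, or without its pair, are also given that way. Eµ-deleted replicate 2 was the highest library for 20 of the 34, beside 24.9% of all genes.

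Replicate 2 was set against replicate 1 within each line, and most members stood higher in replicate 2. Of the 34 tested members 24 were higher in replicate 2 in all 4 lines, beside 26.1% of all genes, and 1, Slc7a11, was lower in all 4, beside 19.1%. The median member difference over the 4 lines was 0.71 on the log2(FPKM + 1) scale, beside 0.04 for all genes. By line it was 1.63 in CBE line 1, 0.48 in CBE line 2, 0.38 in the Eµ-deleted line and 0.40 in WT. Without the CBE line 1 pair the median over the other 3 lines was 0.38, and 25 members were higher in replicate 2 in all 3, beside 32.3% of all genes. Stc2 and Vldlr, listed at 0 in both WT libraries, could not count among the 24 or the 25.

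The difference was widest in CBE line 1. There 25 of the 34 members had at least 2-fold more FPKM in replicate 2, beside 3.56% of all genes. The count was 7 in CBE line 2 (1.19% of all genes), 7 in the Eµ-deleted line (3.83%) and 4 in WT (1.57%). In the test of the replicate number over the 4 lines (limma with a term for each line, Benjamini-Hochberg adjusted over all genes), 0 members and 0% of all genes passed an adjusted p of 0.05. At an unadjusted p under 0.05 there were 21 members higher in replicate 2, beside 18.3% of all genes, and 1 lower, beside 13%. The lowest adjusted p among members was 0.0765, shared by Ddit3, Cebpg, Slc38a2, Atf5 and Slc7a11, so no member passed as changed between replicates. The labels do not say what the replicate numbers stand for.

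Some cell type markers also ran one way in every line. The summed myeloid markers in replicates 2 and 1 were 5.40 and 12.3 FPKM for CBE line 1, 3.05 and 3.58 for CBE line 2, 4.15 and 5.10 for the Eµ-deleted line, and 4.57 and 8.76 for WT. Lyz2, a lysozyme of myeloid cells, had the largest single value, 7.19 FPKM in CBE line 1 replicate 1. Mpo, Elane and Ctsg were at or near 0. Itgam and Cd68 exceeded Lyz2 in both libraries of CBE line 2, as did Cd68 in Eµ-deleted replicate 2. Cd68 was higher in replicate 2 than in replicate 1 for CBE line 2 (1.44 and 1.15 FPKM) and the Eµ-deleted line (2.08 and 1.86 FPKM). Itgam was likewise higher in replicate 2 of the Eµ-deleted line (0.616 and 0.570 FPKM). The pro-B gene Dntt, which encodes the terminal transferase that adds bases at V(D)J joints, was lower in replicate 2, at 134 and 258 FPKM in replicates 2 and 1 for CBE line 1, 58.0 and 90.2 for CBE line 2, 48.1 and 56.8 for the Eµ-deleted line, and 112 and 239 for WT. Igj, the J chain of secreted antibody and a plasma cell marker, was higher in replicate 2, at 18.7 and 2.62 FPKM for CBE line 1, 3.75 and 2.03 for CBE line 2, 8.88 and 1.97 for the Eµ-deleted line, and 2.08 and 1.39 for WT. The summed pro-B and plasma cell markers did not run one way in all 4 lines. Cd93, of the pro-B list, was higher in replicate 2 of every line, opposite to Dntt. Sdc1, of the plasma cell list, was lower in replicate 2 of every line, opposite to Igj and Irf4. Sdc1 FPKM in replicates 2 and 1 were 2.17 and 3.90 for CBE line 1 and 3.72 and 4.54 for CBE line 2. They were 2.55 and 4.29 for the Eµ-deleted line and 0.0789 and 0.151 for WT. The part of these markers in the members' difference was not tested.

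**Figure D1:**
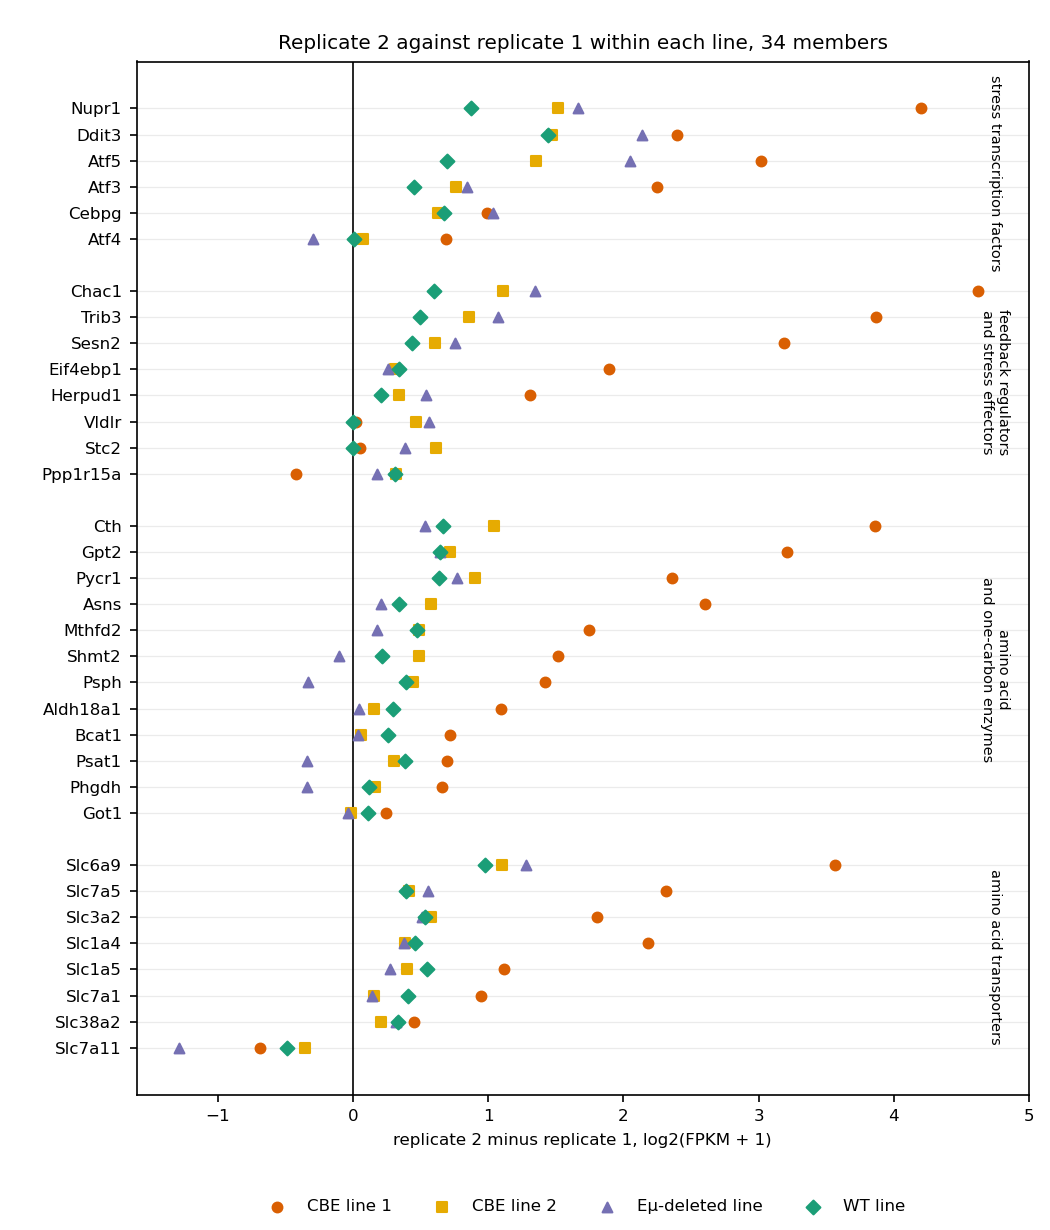
Difference between replicate 2 and replicate 1 on the log2(FPKM + 1) scale (horizontal axis) for each of 34 members (rows, grouped by role), with 1 point per line. Points right of the line at 0 are higher in replicate 2. CBE line 1 lies farthest right for most members, with a median of 1.63, against 0.48 in CBE line 2, 0.38 in the Eµ-deleted line and 0.40 in WT, while Slc7a11 lies left of 0 in all 4 lines.

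Stress transcription factors differed most, with a median of 1.43 for the 6 tested (1.07 over the other 3 lines without the CBE line 1 pair), and 5 of the 6 were higher in replicate 2 of all 4 lines. Ddit3 encodes CHOP, a factor made in prolonged stress. Ddit3 FPKM in replicates 2 and 1 were 62.6 and 11.1 for CBE line 1, 48.3 and 16.8 for CBE line 2, 194 and 43.2 for the Eµ-deleted line, and 79.0 and 28.4 for WT. Replicate 2 exceeded replicate 1 in each line, by 5.64-fold in CBE line 1, 2.88-fold in CBE line 2, 4.49-fold in the Eµ-deleted line and 2.79-fold in WT. The mean difference was 1.86 ± 0.17 on the log2 scale (SE, 4 pairs, adjusted p = 0.0765), and all replicate 2 libraries lay above all replicate 1 libraries.

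Nupr1, a small chromatin-associated protein induced by many stresses, had a mean difference of 2.06 ± 0.51 (SE, adjusted p = 0.079), the largest of the 34 with all 4 lines. Without the CBE line 1 pair it was 1.35, and Ddit3 was then largest at 1.69. Nupr1 FPKM in replicates 2 and 1 were 279 and 14.3 for CBE line 1, 78.3 and 26.8 for CBE line 2, 389 and 122 for the Eµ-deleted line, and 144 and 78.2 for WT. The range over libraries was wide, and CBE line 2 replicate 2 was near WT replicate 1.

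Atf5, an ATF4-related factor whose own mRNA is translated under stress, had FPKM in replicates 2 and 1 of 82.0 and 9.25 for CBE line 1, 24.1 and 8.84 for CBE line 2, 132 and 31.2 for the Eµ-deleted line, and 51.5 and 31.4 for WT. Atf3, a stress-induced repressor of the same family, had FPKM in replicates 2 and 1 of 14.1 and 2.17 for CBE line 1, 12.3 and 6.83 for CBE line 2, 24.9 and 13.5 for the Eµ-deleted line, and 17.0 and 12.2 for WT. Cebpg, a C/EBP protein that pairs with ATF4, had FPKM in replicates 2 and 1 of 30.7 and 14.9 for CBE line 1, 29.0 and 18.3 for CBE line 2, 42.2 and 20.1 for the Eµ-deleted line, and 22.7 and 13.9 for WT. Cebpg stood out by its evenness, with a fold of 1.58 to 2.10 in every line, all replicate 2 libraries above all replicate 1 libraries, and a mean log2 difference of 0.83 ± 0.09 (SE). The mean log2 difference was 1.78 ± 0.35 (SE) for Atf5 and 1.08 ± 0.28 (SE) for Atf3, and that of Atf3 was 0.68 without the CBE line 1 pair.

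Atf4 itself, whose product is controlled mostly at translation, was the exception among the factors. Atf4 FPKM in replicates 2 and 1 were 486 and 302 for CBE line 1, 361 and 343 for CBE line 2, 445 and 548 for the Eµ-deleted line, and 492 and 488 for WT. Replicate 2 was lower in the Eµ-deleted line and at nearly the same level in WT, and the mean log2 difference was 0.12 ± 0.15 (SE, adjusted p = 0.608). Without the CBE line 1 pair the mean turned to -0.07. Cebpb, which did not pass the filter, was highest in Eµ-deleted replicate 2 at 2.98 FPKM and between 0.0302 and 0.536 FPKM in the other 7 libraries.

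**Figure D2:**
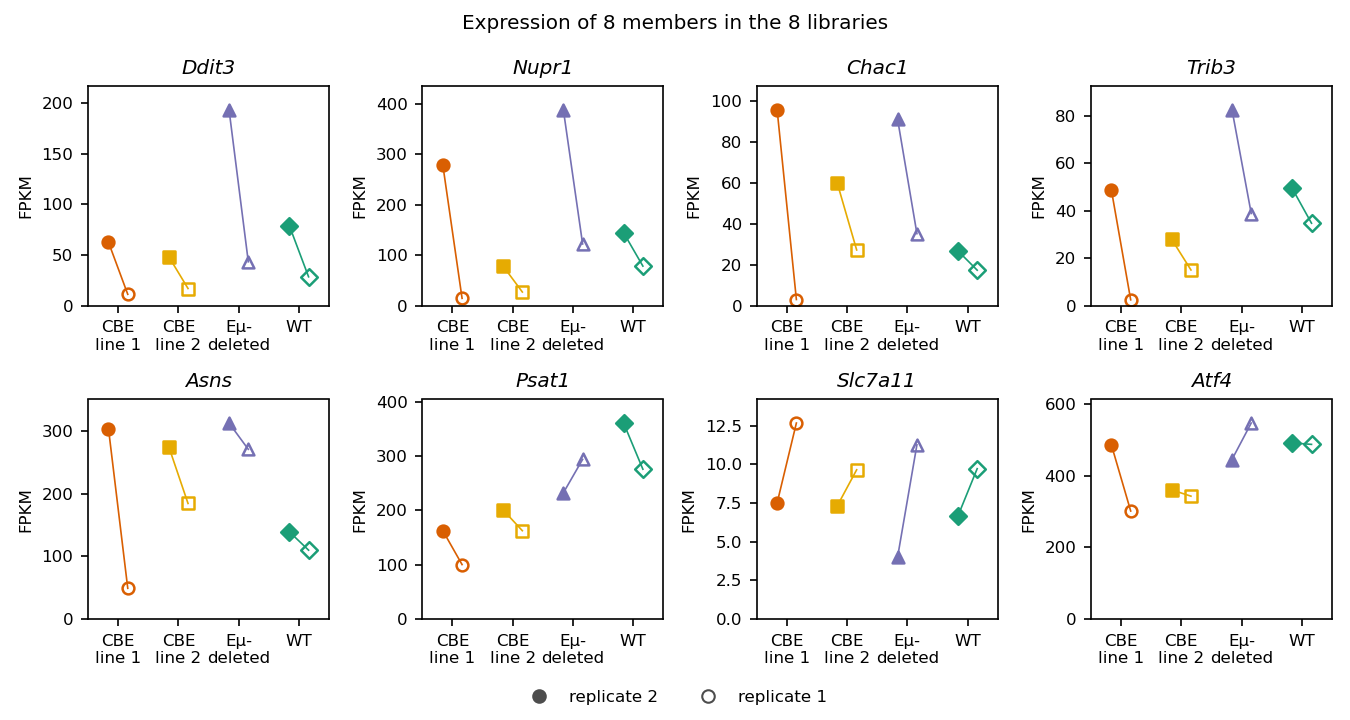
FPKM (vertical axis, linear, starting at 0) of 8 members in the 8 libraries, with filled symbols for replicate 2 and open symbols for replicate 1, joined within a line. Ddit3, Nupr1, Chac1, Trib3 and Asns are higher in replicate 2 of every line. Slc7a11 is lower in replicate 2 of every line, and Psat1 and Atf4 go the other way in the Eµ-deleted line.

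Of 8 feedback regulators and effectors tested, 5 were higher in replicate 2 of all 4 lines, namely Chac1, Trib3, Sesn2, Eif4ebp1 and Herpud1. The median over the 8 was 0.65, or 0.35 without the CBE line 1 pair. Stc2 and Vldlr were listed at 0 in both WT libraries, so they could not be higher in all 4 lines. Both were higher in replicate 2 of the other 3 lines, in CBE line 1 at only 0.0354 and 0.0141 FPKM against 0. Chac1 encodes an enzyme that degrades glutathione and is among the most responsive ATF4 targets. Chac1 FPKM in replicates 2 and 1 were 95.9 and 2.94 for CBE line 1, 59.7 and 27.2 for CBE line 2, 91.0 and 35.1 for the Eµ-deleted line, and 26.7 and 17.3 for WT. The 32.6-fold difference in CBE line 1 was the widest of any member with a value above 0 in both libraries, and the folds in the other lines were 2.20 in CBE line 2, 2.59 in the Eµ-deleted line and 1.55 in WT. The mean log2 difference was 1.92 over 4 lines and 1.02 without the CBE line 1 pair.

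Trib3 encodes a pseudokinase that binds ATF4 and CHOP and dampens them. Trib3 FPKM in replicates 2 and 1 were 48.7 and 2.41 for CBE line 1, 28.0 and 15.0 for CBE line 2, 82.8 and 38.9 for the Eµ-deleted line, and 49.4 and 34.7 for WT. The 2.41 FPKM of CBE line 1 replicate 1 stood far below the other 7 libraries, and the mean log2 difference of 1.57 ± 0.54 (SE, adjusted p = 0.12) carried a wide error and was 0.81 without that line's pair. Sesn2, a leucine sensor that restrains mTORC1, ranged from 2.43 to 31.6 FPKM, with 12.4-fold more in replicate 2 than in replicate 1 of CBE line 1 and 1.37- to 1.73-fold more in the other lines. Eif4ebp1, a repressor of cap-dependent translation, ranged from 82.1 to 309 FPKM, and Herpud1, which acts in the clearance of proteins from the endoplasmic reticulum, from 56.1 to 174 FPKM. For all 3 the lowest library was CBE line 1 replicate 1, and without that line's pair the mean log2 difference was 0.60 for Sesn2, 0.30 for Eif4ebp1 and 0.36 for Herpud1, against 1.25, 0.70 and 0.60 with it.

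Ppp1r15a encodes GADD34, the subunit that directs a phosphatase to eIF2. Ppp1r15a FPKM in replicates 2 and 1 were 16.5 and 22.4 for CBE line 1, 12.3 and 9.62 for CBE line 2, 26.6 and 23.3 for the Eµ-deleted line, and 14.0 and 11.1 for WT. CBE line 1 thus ran opposite to the other 3 lines, and the mean log2 difference was 0.10 ± 0.13 (SE), or 0.27 without CBE line 1. Gdf15, a secreted stress cytokine, had 0.0213 FPKM in CBE line 1 replicate 2 and 0.0375 FPKM in WT replicate 1, or 1 and 3 implied reads, and was listed at 0 in the other 6 libraries.

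Enzymes were higher in replicate 2 of all 4 lines in 7 of 12 cases, with a median of 0.51 over 4 lines and 0.18 without the CBE line 1 pair. By line the median was 1.47 in CBE line 1, 0.47 in CBE line 2, 0.04 in the Eµ-deleted line and 0.36 in WT, and 11 of the 12 were lowest in CBE line 1 replicate 1. Asns encodes asparagine synthetase. Asns FPKM in replicates 2 and 1 were 304 and 49.0 for CBE line 1, 275 and 184 for CBE line 2, 313 and 271 for the Eµ-deleted line, and 139 and 110 for WT. The fold was 6.20 in CBE line 1, 1.49 in CBE line 2, 1.15 in the Eµ-deleted line and 1.27 in WT, and the mean log2 difference was 0.93 ± 0.40 (SE, adjusted p = 0.17), or 0.37 without the CBE line 1 pair. Both WT libraries lay below the other lines' libraries except CBE line 1 replicate 1.

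Of 5 enzymes of serine and mitochondrial one-carbon metabolism, 4 were lower in replicate 2 in the Eµ-deleted line alone. Psat1, Phgdh and Psph make serine, and Shmt2 and Mthfd2 pass its carbon to folate in mitochondria. Psat1, Phgdh, Psph and Shmt2 were higher in replicate 2 of CBE line 1, CBE line 2 and WT and lower in replicate 2 of the Eµ-deleted line. In the Eµ-deleted line the fold of replicate 2 over replicate 1 was 0.79 for Psat1, Phgdh and Psph and 0.929 for Shmt2. Psph FPKM in replicates 2 and 1 were 77.1 and 28.2 for CBE line 1, 104 and 75.8 for CBE line 2, 45.1 and 57.0 for the Eµ-deleted line, and 129 and 97.7 for WT. Mthfd2 was higher in replicate 2 of every line, by 3.38-fold in CBE line 1, 1.40-fold in CBE line 2, 1.13-fold in the Eµ-deleted line and 1.39-fold in WT. The difference of the Eµ-deleted line from the others in this respect was not tested, since each line has a single pair.

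Among other enzymes, Cth, which makes cysteine from cystathionine, had FPKM in replicates 2 and 1 of 185 and 11.8 for CBE line 1, 124 and 59.9 for CBE line 2, 273 and 189 for the Eµ-deleted line, and 205 and 128 for WT. Gpt2, the mitochondrial alanine aminotransferase, was 13.5-fold higher in replicate 2 of CBE line 1 and 1.58- to 1.70-fold higher in the other lines. Of the proline pathway, Pycr1 was 7.69-fold higher in replicate 2 of CBE line 1 and 1.63- to 2.04-fold higher elsewhere. Aldh18a1, the first enzyme of that pathway, was 2.16-fold higher in CBE line 1 and 1.03- to 1.23-fold higher elsewhere. Bcat1, a branched-chain aminotransferase, was 1.67-fold higher in CBE line 1 and 1.03- to 1.21-fold higher elsewhere. Got1, the cytosolic aspartate aminotransferase, showed little difference, with folds of 0.973 to 1.19.

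Transporters had a median of 0.72 over 4 lines and 0.41 without the CBE line 1 pair. Of 8, 7 were higher in replicate 2 of all 4 lines and 1 was lower in all 4, and 7 passed an unadjusted p of 0.05 upward. Slc6a9, a glycine carrier, had FPKM in replicates 2 and 1 of 18.8 and 0.677 for CBE line 1, 17.2 and 7.51 for CBE line 2, 28.1 and 10.9 for the Eµ-deleted line, and 22.3 and 10.8 for WT. It was more than 2-fold higher in replicate 2 of each line, with folds of 27.8, 2.30, 2.56 and 2.06 in CBE line 1, CBE line 2, the Eµ-deleted line and WT. Slc7a5 and Slc3a2 encode the chains of the large neutral amino acid carrier. Slc7a5 was 5.05-fold higher in replicate 2 of CBE line 1 and 1.32- to 1.47-fold higher in the other lines, and Slc3a2 was 3.53-fold and 1.43- to 1.49-fold higher in the same order.

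Slc38a2, a carrier of small neutral amino acids, had a small and even difference of 0.33 ± 0.06 (SE, adjusted p = 0.0765). Its FPKM in replicates 2 and 1 were 115 and 83.7 for CBE line 1, 80.8 and 69.7 for CBE line 2, 122 and 97.7 for the Eµ-deleted line, and 84.3 and 66.6 for WT. The folds lay between 1.16 and 1.37, so CBE line 1 did not stand apart here. Slc1a4 and Slc1a5 carry alanine, serine, cysteine and, for Slc1a5, glutamine, and Slc7a1 carries arginine. In CBE line 1 the folds were 5.32 for Slc1a4, 2.23 for Slc1a5 and 1.98 for Slc7a1, against 1.11 to 1.47 for the 3 genes in the other lines.

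Slc7a11, the cystine and glutamate exchanger, went the other way. Its FPKM in replicates 2 and 1 were 7.50 and 12.7 for CBE line 1, 7.33 and 9.66 for CBE line 2, 4.03 and 11.3 for the Eµ-deleted line, and 6.66 and 9.73 for WT. All replicate 2 libraries lay below all replicate 1 libraries, and the mean log2 difference was -0.70 ± 0.15 (SE, adjusted p = 0.0765).

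Members whose promoter held TGATGNAA did not all go one way. Of the 11 with the element, 8 were higher in replicate 2 of all 4 lines and the median difference was 0.93, beside 12 of 19 and a median of 0.48 for tested members with a window but no match. Without the CBE line 1 pair these medians were 0.41 and 0.29. The other 3 were Vldlr, Got1 and Slc7a11. Vldlr, and Stc2 among the 19, could not be higher in all 4 lines, since both were listed at 0 in WT. Over all tested genes, 32.4% of 213 with the element and 25.9% of 7647 with a window but no match were higher in replicate 2 of all 4 lines. These are counts with no test.

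Related genes outside the set were counted from lists, and 0 of them passed the adjusted threshold between replicates. Cytosolic aminoacyl-tRNA synthetases, which charge tRNAs, were higher in replicate 2 of all 4 lines in 8 of 20 cases and lower in 4, with a median of 0.26 that was 0.08 without the CBE line 1 pair. Other amino acid transporters gave 5 higher and 2 lower of 13, and genes of mTORC1 and nutrient sensing 8 higher and 4 lower of 23, and under quantile scaling these lists were even, with 4 and 4 and with 6 and 6. Without that pair the transporter list gave 5 higher and 3 lower in all of the other 3 lines, and the mTORC1 list 8 and 6. The eIF2 kinases, eIF2B subunits and their feedback genes gave 4 higher and 10 lower of 19. Other one-carbon, serine and proline genes gave 1 higher and 6 lower of 16 (median -0.09, or -0.06 without the CBE line 1 pair), and mitochondrial protein quality genes 3 higher and 5 lower of 15.

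In the list for the unfolded protein response of the endoplasmic reticulum, more genes stood lower than higher in replicate 2. Of 23 listed genes 12 were lower in replicate 2 of all 4 lines and 3 were higher, with a median of -0.29. Hspa5, the chaperone BiP, was picked out after its values were seen and had FPKM in replicates 2 and 1 of 154 and 338 for CBE line 1, 110.1 and 174 for CBE line 2, 82.1 and 241 for the Eµ-deleted line, and 179 and 255 for WT. Each replicate 2 library was below its own line's replicate 1, and the mean log2 difference was -0.96 ± 0.17 (SE, adjusted p = 0.0765). Genes of NRF2 and glutathione metabolism, which act in the oxidative stress response, likewise had more genes lower, with 12 lower and 1 higher of 21 and a median of -0.13, which was -0.06 without the CBE line 1 pair.

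**Figure D3:**
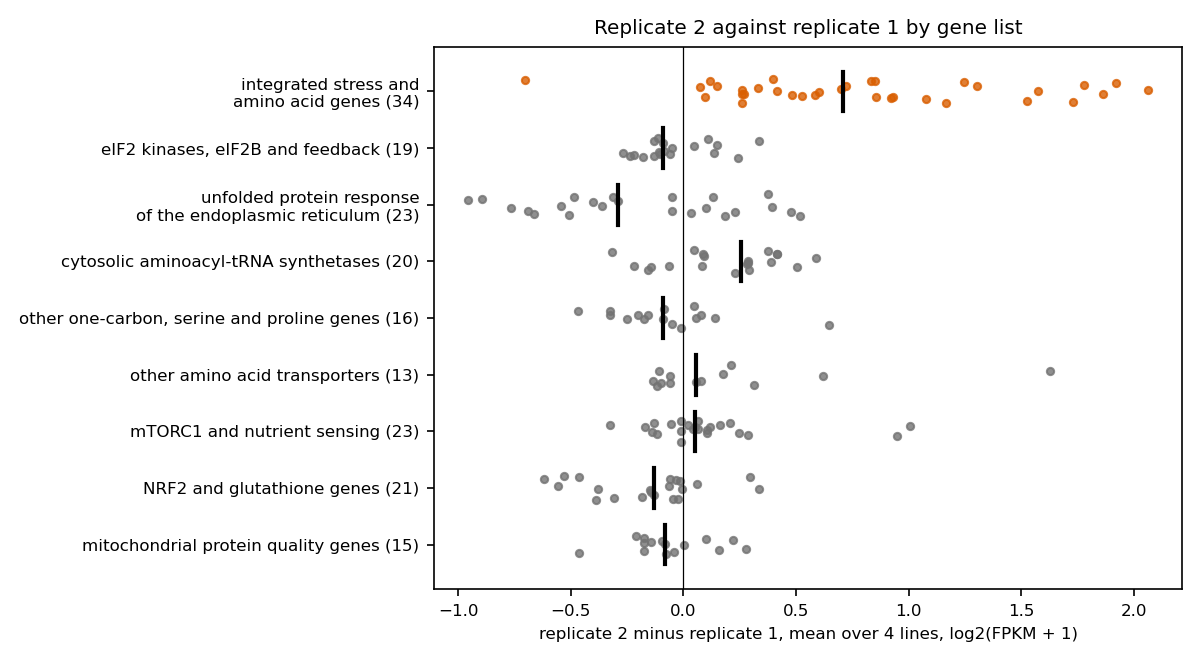
Mean difference of replicate 2 minus replicate 1 over the 4 lines, log2(FPKM + 1), with 1 point per gene and rows for the members (top) and 8 lists of related genes. Vertical bars are medians, and numbers in brackets are genes tested. The members have a median of 0.71, the aminoacyl-tRNA synthetases 0.26 (0.08 without the CBE line 1 pair) and the unfolded protein response list -0.29.

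Between lines, members were called in the test of any difference among the 4 lines (limma on all 8 libraries, adjusted p under 0.05) in 5 of 34 cases, beside 27.6% of all genes. They were Got1, Psat1, Ppp1r15a, Stc2 and Vldlr. Stc2 and Vldlr are listed at 0 in both WT libraries and passed the filter only through CBE line 2 and the Eµ-deleted line, where they are high, so their calls are no support for a line difference, and 3 of the other 32 members were called. The count rested on CBE line 1. Without its replicate 2, 24 of 34 members passed, beside 27.3% of all genes, and without its replicate 1, 5 passed. With the replicate number as a further term, 11 members passed, beside 45.3% of all genes. They were the 5 named above, Stc2 and Vldlr included, and Ddit3, Cebpg, Aldh18a1, Bcat1, Slc38a2 and Slc1a5. The 3 comparisons with WT described next share the WT libraries and are not independent of each other.

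Got1 (mm9, chr19:43574243-43599095) was lower than WT in every line. Its FPKM in replicates 2 and 1 were 44.8 and 37.7 for CBE line 1, 34.4 and 34.8 for CBE line 2, 44.1 and 45.4 for the Eµ-deleted line, and 72.7 and 67.0 for WT. No library of the other lines reached the WT level. Got1 fell by 0.75 in CBE line 1, by 0.99 in CBE line 2 and by 0.63 in the Eµ-deleted line relative to WT on the log2 scale, with an SE of 0.11 for each and adjusted p of 0.00381, 0.000993 and 0.00801. The first 2 calls held in every alternative run, and the Eµ call ended without WT replicate 2 (adjusted p = 0.0755, and 0.00434 to 0.0755 over 16 alternatives).

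Psat1 (mm9, chr19:15979613-15999549), the aminotransferase of serine synthesis, was lower than WT in the CBE lines. Its FPKM in replicates 2 and 1 were 163 and 100.1 for CBE line 1, 201 and 162 for CBE line 2, 232 and 294 for the Eµ-deleted line, and 361 and 276 for WT. The CBE libraries did not overlap WT, whereas the Eµ-deleted line did. Psat1 fell by 1.05 ± 0.23 (SE, adjusted p = 0.0194) in the CBE lines jointly and by 1.30 ± 0.26 (SE, adjusted p = 0.0165) in CBE line 1 on the log2 scale. The joint call ended without CBE line 2 replicate 1 (0.0677), WT replicate 1 (0.058) or WT replicate 2 (0.17), with a range of 0.00839 to 0.17 over 16 alternatives. The CBE line 1 call ended without CBE line 1 replicate 1 (0.063) or WT replicate 2 (0.122), with a range of 0.00799 to 0.122. With the replicate number as a term, 2 further differences of Psat1 were called. CBE line 2 fell by 0.80 ± 0.23 relative to WT (SE, adjusted p = 0.0428, against 0.0849 without the term), and the Eµ-deleted line exceeded both CBE lines by 0.78 ± 0.19 (SE, adjusted p = 0.0372, against 0.0781 without it).

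Stc2 and Vldlr were low throughout and listed at 0 in WT. Stc2 (mm9, chr11:31259441-31270061) encodes stanniocalcin 2, a secreted glycoprotein. Stc2 FPKM in replicates 2 and 1 were 0.0354 and 0 for CBE line 1, 4.33 and 2.48 for CBE line 2, 1.83 and 1.17 for the Eµ-deleted line, and 0 and 0 for WT. CBE line 1 replicate 2 held 3 implied reads of Stc2, against 164 to 421 reads in replicate 2 of the Eµ-deleted line and CBE line 2. Both lines lay above 1 FPKM in each library, and CBE line 1 and WT at or near 0. The test's values for this gene are left out, since it entered the test only through the lines where it is high, and no fold is given against a line listed at 0.

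Vldlr (mm9, chr19:27291510-27328721), a lipoprotein receptor, likewise was above 1 FPKM in CBE line 2 and the Eµ-deleted line only. Vldlr FPKM in replicates 2 and 1 were 0.0141 and 0 for CBE line 1, 2.33 and 1.41 for CBE line 2, 2.61 and 1.44 for the Eµ-deleted line, and 0 and 0 for WT. CBE line 1 was near 0, as was WT, and CBE line 2 overlapped with the Eµ-deleted line. It entered the test in the same way as Stc2, so its test's values are left out too.

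Ppp1r15a (mm9, chr7:52778288-52781638) rose in the Eµ-deleted line, to 25.0 ± 2.31 FPKM, against 12.6 ± 2.04 FPKM in WT (SD, n = 2 each). The 26.6 and 23.3 FPKM of the Eµ-deleted libraries lay above all others, and the difference from WT was 0.94 ± 0.19 on the log2 scale (SE, adjusted p = 0.0165). The call ended without Eµ-deleted replicate 2 (0.0764) or WT replicate 1 (0.112), with a range of 0.0125 to 0.112 over 16 alternatives. CBE line 2 fell by 0.77 ± 0.19 relative to CBE line 1 with the replicate term (SE, adjusted p = 0.041), and the adjusted p was 0.0544 without it.

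Counted by comparison, CBE line 1 against WT gave 2 members lower, beside 8.54% of all genes, and 0 higher, beside 10.9% (19.4% in either direction). CBE line 2 against WT gave 2 higher, beside 10.5%, and 1 lower, beside 8.19% (18.7% in all). The Eµ-deleted line against WT gave 3 higher, beside 11.3%, and 1 lower, beside 10.4% (21.8% in all). The CBE lines jointly against WT gave 2 higher, beside 12.5%, and 2 lower, beside 9.78% (22.3% in all). CBE line 2 against CBE line 1 gave 2 higher, beside 5.17%, and 0 lower, beside 5.03% (10.2% in all). The Eµ-deleted line set against both CBE lines gave 2 higher (Ppp1r15a and Vldlr), beside 5.16%, and 0 lower, beside 7.25% (12.4% in all). Stc2 and Vldlr made up all the higher calls in CBE line 2 against WT, in the CBE lines against WT and in CBE line 2 against CBE line 1, and 2 of the 3 in the Eµ-deleted line against WT. Without these genes, Ppp1r15a was the member called higher, in Eµ-deleted against WT and against both CBE lines. The call of Ppp1r15a in Eµ-deleted against both CBE lines was lost in 8 of 16 alternatives (adjusted p 0.0247 to 0.168). Of the joint CBE calls against WT, that of Vldlr was lost in 7 of 15 alternatives and that of Stc2 in 2.

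Which library of CBE line 1 was used changed how many members differed from WT. Without its replicate 2, 22 of 34 members were called lower in CBE line 1 than in WT, beside 8.32% of all genes, with a median difference of -1.63, taking the lone library to vary as the other lines do. Without its replicate 1, 1 was lower (Got1), beside 5.26% of all genes, and 1 was higher (Asns), beside 7.95%, with a median of 0.19. The same omission of replicate 2 gave 16 members lower (10.4% of all genes) and 1 higher (12.1%) in the CBE lines against WT, 15 higher (4.45%) and 1 lower (3.36%) in CBE line 2 against CBE line 1, and 16 higher (4.58%) in Eµ-deleted against both CBE lines. Asns had a difference of 1.29 (adjusted p = 0.0388) in CBE line 1 against WT without replicate 1 and of -1.32 (adjusted p = 0.0301) without replicate 2. The direction of Asns in this line therefore turned with the library used.

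**Figure D4:**
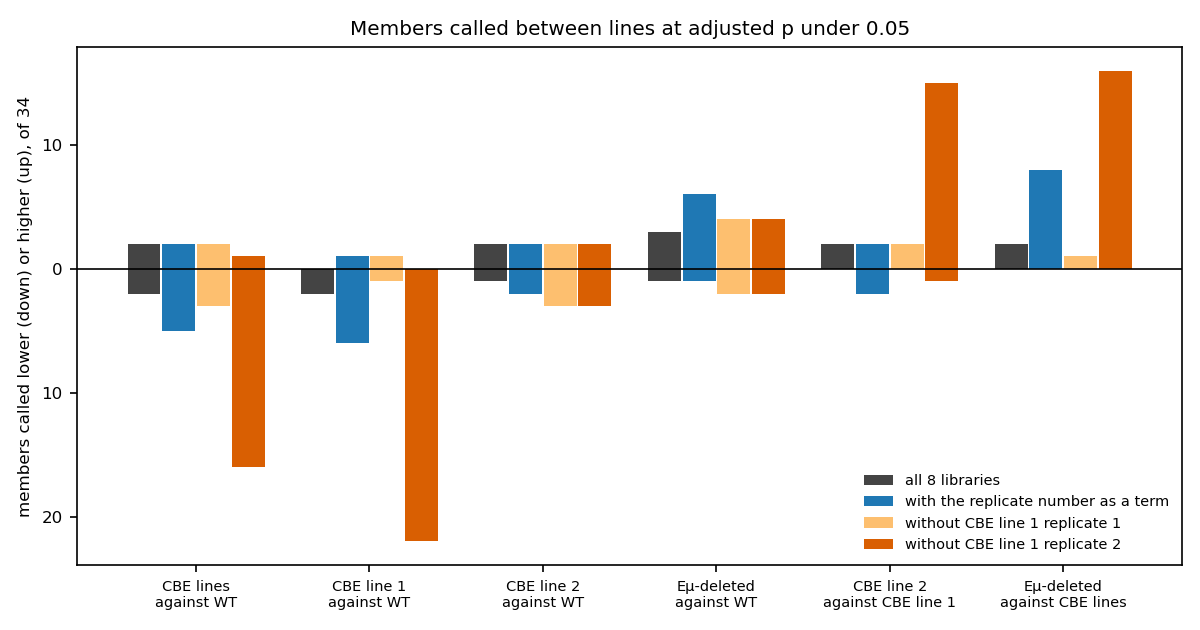
Number of the 34 tested members called at an adjusted p under 0.05 between lines (vertical axis, higher members drawn up and lower members drawn down from 0), for 6 comparisons. Bars stand for all 8 libraries, for the fit with the replicate number as a term, and for fits without either library of CBE line 1. The tallest downward bar is the 22 members called lower in CBE line 1 than in WT without its replicate 2, against 2 with all 8 libraries.

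Since the replicate numbers went with shared differences in all lines, the fit with the replicate number as a term also bears on the line comparisons. It called 5 members lower (15.1% of all genes) and 2 higher (17.9%) in the CBE lines against WT, where 33% of all genes passed in either direction. In CBE line 1 against WT it called 6 lower (14.1%) and 1 higher (15.9%), of 30% in all. In CBE line 2 against WT it called 2 lower (13.1%) and 2 higher (15.7%), of 28.8% in all. In the Eµ-deleted line against WT it called 6 higher (17.6%) and 1 lower (16.4%), of 34% in all. In CBE line 2 against CBE line 1 it called 2 higher (8.25%) and 2 lower (8.32%), of 16.6% in all. Stc2 and Vldlr were the 2 higher in the CBE lines against WT, in CBE line 2 against WT and in CBE line 2 against CBE line 1. They were also among the 6 higher in the Eµ-deleted line against WT. Both passed the filter only through the lines where they are high, so these calls are no support. For Eµ-deleted against both CBE lines it called 8 higher (Vldlr among them), or 23.5% of the 34, beside 9.86% of all genes, and 0 lower, beside 12.4% (22.2% in all). The median member difference in this comparison was 0.69, and 0.24 when CBE line 1 replicate 1 was left out. In the CBE lines against WT it was -0.49, and -0.04 without that library. The fit with the replicate term was not run without that library.

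Ddit3 was called by that fit in 3 comparisons between lines and in the test of any difference among the 4 lines. In the latter its adjusted p was 0.00641, against 0.492 without the term. None of these calls was made without the term. With it the Eµ-deleted line exceeded the CBE lines by 1.69 ± 0.21 (SE, adjusted p = 0.00354) and WT by 0.94 ± 0.25 (SE, adjusted p = 0.0306), and the CBE lines differed from WT by -0.76 ± 0.21 (SE, adjusted p = 0.0383). Without the term the adjusted p were 0.282, 0.564 and 0.61. The Ddit3 difference of CBE line 1 from WT was -0.81, and it turned to 0.39 when CBE line 1 replicate 1 was left out. That of CBE line 2 from WT was -0.71. Both Ddit3 differences that involve the CBE lines jointly thus rest in part on that 1 library. For Cebpg the Eµ-deleted line exceeded WT by 0.68 ± 0.12 (SE, adjusted p = 0.00937) with the term, and the adjusted p was 0.349 without it. For Slc38a2 the same difference was 0.54 ± 0.08 (SE, adjusted p = 0.00485) with the term, and the adjusted p was 0.105 without it. Aldh18a1 was lower in the CBE lines than in WT (log2 difference -0.84 ± 0.21, adjusted p = 0.0274) with the term, and the adjusted p was 0.0787 without it. It was also lower in CBE line 1 than in WT with the term (adjusted p = 0.0179, against 0.0544 without it). That difference of Aldh18a1 was -1.13, and -0.58 when CBE line 1 replicate 1 was left out. Slc38a2 was further called higher in CBE line 1 than in WT (0.0174), lower in CBE line 2 than in CBE line 1 (0.0281) and higher in Eµ-deleted than in both CBE lines (0.0199), with adjusted p of 0.249, 0.332 and 0.253 without the term. Its difference in CBE line 1 against WT was 0.38, and 0.61 when CBE line 1 replicate 1 was left out.

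Of the other members called with the replicate term alone, Atf5 was higher in Eµ-deleted than in the mean of both CBE lines. The difference was 1.61 ± 0.43 (SE, adjusted p = 0.044), and the adjusted p was 0.32 without the term. The Atf5 libraries overlapped, with 82.0 FPKM in CBE line 1 replicate 2 and 31.2 in Eµ-deleted replicate 1. Psph was lower in CBE line 1 than in WT (log2 difference -1.25, adjusted p = 0.046, against 0.099 without the term). Bcat1 was lower in CBE line 1 than in WT (-0.61, adjusted p = 0.0415) and higher in Eµ-deleted than in both CBE lines (0.63, adjusted p = 0.0296), with 0.112 and 0.0876 without the term. Slc1a5 was lower in CBE line 1 than in WT (-0.70, adjusted p = 0.0411), lower in the CBE lines jointly than in WT (-0.58, adjusted p = 0.0427) and higher in Eµ-deleted than in both CBE lines (0.62, adjusted p = 0.047), with 0.256, 0.255 and 0.27 without the term. These differences of CBE line 1 from WT shrank when its replicate 1 was left out. They were then -0.54 for Psph, -0.25 for Bcat1 and -0.14 for Slc1a5. For Atf5 the difference of CBE line 1 from WT was -0.50, and 1.01 without that library. The differences of Atf5, Bcat1 and Slc1a5 that take both CBE lines jointly include the same library.

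Related lists were counted beside the same shares of all genes. In the CBE lines against WT, where 12.5% of all genes were higher and 9.78% lower, NRF2 and glutathione genes had 4 higher and 1 lower of 21, near the 22.3% of all genes called. Hmox1, which degrades heme, had FPKM in replicates 2 and 1 of 3.41 and 0.887 for CBE line 1, 5.07 and 4.01 for CBE line 2, and 0.252 and 0.297 for WT. Hmox1 and Abcc1, both among the 4 higher, passed the filter only through the CBE lines, where they are high. Their calls are therefore no support, and the test's values for them are left out. The unfolded protein response list had 2 lower of 23, Xbp1 and Syvn1. Xbp1, its main transcription factor and also a plasma cell marker, had 37.7 and 32.1 FPKM in replicates 2 and 1 of CBE line 1 and 18.0 and 17.8 in CBE line 2, against 101 and 109 in WT, and it fell by 2.03 ± 0.11 (SE, adjusted p = 4.48e-05). Counts for the other lists in this comparison were 2 higher of 19 for the eIF2 list, 0 of 20 for the synthetases and 2 higher and 1 lower of 16 for the one-carbon list. They were 1 higher and 1 lower of 13 for the transporters, 2 higher of 23 for mTORC1 and 2 lower of 15 for the mitochondrial list.

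For Eµ-deleted against WT, the other amino acid transporters had 2 higher and 1 lower of 13, beside 11.3% of all genes higher and 10.4% lower (21.8% in all). Slc7a7, a carrier of cationic amino acids, had 0.369 and 0.21 FPKM in replicates 2 and 1 of the Eµ-deleted line, against 13.9 and 10.7 in WT. It fell by 3.36 ± 0.14 (SE, adjusted p = 1.85e-05). Sesn3, a relative of Sesn2, had 15.3 and 11.2 FPKM in replicates 2 and 1 of the Eµ-deleted line, against 6.43 and 6.35 in WT, and it rose by 0.93 ± 0.16 (SE, adjusted p = 0.00952). The mTORC1 list had 2 higher and 1 lower of 23, the one-carbon list 3 higher and 1 lower of 16, the NRF2 list 2 higher and 1 lower of 21 and the mitochondrial list 3 lower of 15. The eIF2 list had 1 lower of 19, the unfolded protein response list 1 higher and 1 lower of 23, and the synthetases 1 higher and 1 lower of 20.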

How the data were processed

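The deposited values are FPKM per gene with an interval and a status, per the file headers, made by the authors with TopHat and Cufflinks on mm9 per the submitters' processing notes; versions, settings and counting rules: not given in the sources used here. How strands and reads with several matches were assigned is therefore unknown, and members with pseudogene copies or antisense partners are uncertain. RNA came from stranded poly(A) libraries, per the labels' protocols. From the deposited FPKM, rows of 277 symbols at several loci were summed and 21 symbols whose status was not OK were left out, none of them a member.

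Genes reaching 1 FPKM in 2 or more of 8 libraries (10479) were tested on log2(FPKM + 1), which understates changes of low genes, with limma 3.58.1 in R 4.3.3 (trend, 4 residual and 2.65 prior degrees of freedom, or 3 and 3.13 for the replicate term) and Benjamini-Hochberg adjustment at 0.05. Depth was not stated per library. Of low values, 59.8% implied whole reads within 0.01, which does not allow a count test, and read numbers cover counting error only. The fit was tested on simulated data.

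Replicate numbers come from the titles. Differences between replicates correlated between all 6 pairs of lines (r 0.279 to 0.502 across genes), so the numbers were taken to pair the libraries, and the fit with that term is given where it changes a call.

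Members, roles and lists were chosen with earlier results of these data known. Values in every library were given for members called with non-overlapping libraries, and always for Atf4, Ddit3, Asns and Trib3. Further members were shown after their values were seen, and up to 3 called genes per list could be named. Tried besides were other pseudocounts (0.1, 5), dropping the filter or asking for a mean of at least 5 FPKM, scaling by median of ratios or quantiles, no trend, the replicate term, and leaving out each library or pair. Promoter windows were RefSeq's, matched by symbol.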

Additional observations from a re-analysis of the deposited data

Results flagged for a closer look

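Among the 4 CBE libraries, Bcat1 in CBE line 1 replicate 1 lay apart from the others, at 22.1 FPKM, against 37.0 FPKM in CBE line 1 replicate 2, 36.04 in CBE line 2 replicate 2 and 34.6 in CBE line 2 replicate 1. The 34 tested members were examined for such a library, and chance flags about 1 in 20 groups.

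Some members differed from WT by unequal amounts in different lines. CBE line 2 exceeded CBE line 1 by 2.08 for Stc2 and by 1.49 for Vldlr on the log2 scale, and the Eµ-deleted line exceeded the CBE lines by 0.74 for Ppp1r15a and by 0.81 for Vldlr, each past the adjusted threshold in limma. Stc2 and Vldlr passed the filter on low values only through CBE line 2 and the Eµ-deleted line, where they are high, so these differences are values and no support.

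In 6 members the difference of replicate 2 from replicate 1 ran one way in 1 line and the other way in the other 3, which was not tested. In the Eµ-deleted line replicate 2 minus replicate 1 was -0.30 for Atf4, -0.34 for Psat1, -0.34 for Phgdh, -0.33 for Psph and -0.11 for Shmt2, all positive in the other 3 lines. In CBE line 1 it was -0.42 for Ppp1r15a.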

How the results depend on the processing

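Counts of members called between lines rested on few libraries and moved with several settings. They include any calls of Stc2 and Vldlr where these were tested, and such calls are no support. With a mean FPKM of 5 or more, Stc2 and Vldlr were not tested, and the members called were 3 for any difference, 0 for CBE line 2 against CBE line 1, 1 for CBE line 2 against WT, 2 for the CBE lines against WT, 1 for Eµ-deleted against both CBE lines and 2 for that line against WT. With the replicate number as a block, they were 11 for any difference, 7 for CBE line 1 against WT, 4 for CBE line 2 against CBE line 1, 7 for the CBE lines against WT, 8 for Eµ-deleted against both CBE lines and 7 for that line against WT. Stc2, Vldlr or both were among these calls in each comparison except CBE line 1 against WT. No other count of members moved by over 1.5 times with that block. Eµ-deleted against both CBE lines gave 0 with no filter, beside 1677 of 16290 genes. It gave 1 with a pseudocount of 5 and 3 with a pseudocount of 0.1, beside 1210 and 1309 of 10479 genes. CBE line 1 against WT gave 3 with median-of-ratios scaling, beside 2095 of 10470 genes. CBE line 2 against CBE line 1 gave 3 with that scaling, beside 1153 of 10470 genes. With quantile scaling it gave 3, beside 1234 of 10479 genes. Leaving out single libraries gave 3 to 24 members for any difference, 1 to 22 for CBE line 1 against WT, 1 to 16 for CBE line 2 against CBE line 1, 3 to 5 for CBE line 2 against WT, 1 to 17 for the CBE lines against WT, 0 to 16 for Eµ-deleted against both CBE lines and 2 to 6 for that line against WT.

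Over all genes, a mean FPKM of 5 or more gave 1517 calls for any difference, 1056 for CBE line 1 against WT, 369 for CBE line 2 against CBE line 1, 1023 for CBE line 2 against WT, 1247 for the CBE lines against WT, 535 for Eµ-deleted against both CBE lines and 1304 for that line against WT, with 7879 genes tested. The replicate block gave 4746, 3142, 1736 and 3013 in the first 4 of these, and 2331 and 3563 in Eµ-deleted against both CBE lines and against WT. Leaving out single libraries gave 1544 to 4239, 903 to 2608, 375 to 1373, 950 to 2546, 1022 to 2916, 718 to 2351 and 890 to 3317 calls in the 7 comparisons as first listed. Between replicates, leaving out a line's pair gave 0 to 3 genes and 0 members. Without the CBE line 1 pair, the replicate difference turned to -0.0711 for Atf4 and -0.0187 for Phgdh, with highs of 0.257 and 0.314 without the Eµ-deleted pair. Of single member values, 228 kept direction and side of the threshold in line comparisons, 35 lost the call, and 370 kept both between replicates. Under median-of-ratios scaling 22 members were higher in replicate 2 of all 4 lines, and under quantile scaling 28. The cause of these shifts was not tested beyond the genes and libraries removed.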
